A study of Mus musculus with 6 samples.

Results

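The core circadian clock genes were followed in adult mouse muscle, namely Arntl, Clock, Npas2, Per1, Per2, Per3, Cry1, Cry2, Nr1d1 and Dbp. They were chosen by name and make up 10 of the 24421 genes in the count files. All 10 passed the expression filter that left 14180 genes for testing, so no member is missing from the counts given here.

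The RNA came from whole GP (gastrocnemius and plantaris) muscle, sequenced as bulk mRNA libraries, of male mice on a B6C3F1 background, at 5 months of age and 3 months after tamoxifen. The labels name 3 Ctrl mice (Net39 fl/fl, Cre-) and 3 cKO mice (HSACreERT2;Net39 fl/fl), with 1 library a mouse, to learn what changes when muscle loses the nuclear envelope protein Net39 in adulthood. All 6 mice carried the floxed Net39 alleles and were given tamoxifen. The Cre is driven by the human skeletal actin promoter, which is active in muscle fibers and not in the other cells of the tissue, and no group had Cre without floxed alleles. The sources used here do not give the time of day at which muscles were collected.

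Total counts were 33860001 to 38201728 in the Ctrl-labelled libraries and 39191239 to 48839910 in the cKO-labelled ones. Muscle markers were abundant in each library, with summed levels of 7 genes (Acta1, Ckm, Ttn, 3 fast myosins and Des) of 92686 to 106920 CPM in the Ctrl-labelled ones and 127030 to 169180 CPM in the cKO-labelled ones. Here CPM is the count of a gene normalised to the depth of its library, after TMM (trimmed mean of M values) scaling. Net39, listed under its older symbol Ppapdc3, had 310, 321 and 217 counts in the Ctrl-labelled libraries and 5365, 4340 and 6080 in the cKO-labelled ones. Its level was 7.20 ± 1.10 CPM (SD, n = 3) against 134 ± 19.7 CPM (log2 fold change 4.22, adjusted p = 0.000161 by edgeR's quasi-likelihood test). The targeted gene thus goes against the labels, and each direction below is given for the labelled groups.

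The clock is a feedback loop of transcription. BMAL1, the product of Arntl, pairs with CLOCK or its relative NPAS2, binds E-box sequences and switches on Per, Cry, Nr1d1 and Dbp. PER and CRY proteins then block BMAL1 and CLOCK, REV-ERBα (Nr1d1) represses Arntl through ROR response elements (ROREs), which ROR factors use to activate it, and DBP activates genes with D-boxes. In skeletal muscle this loop runs in the fibers and drives daily changes in fuel use, and the transcripts of its limbs peak at different times of day.

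The sites through which the loop is wired were read from the promoters of the members, since the results below turn on how these genes move relative to each other. Windows from 250 bases before to 50 bases after each start were taken from RefSeq on GRCm38.p6, the assembly also called mm10. They were present for 9 of the 10 members, all but Per2. Both strands were searched for the E-box CACGTG, the E-prime box CACGTT, the RORE core TAGGTCA, the D-box TTATGNAA and the cyclic AMP response element TGACGTCA. None of these 5 motifs overlapped another in the windows printed. Each sequence is given in the direction of its gene, 5′ to 3′, with the motif letters in capitals, and E-prime boxes on the other strand read AACGTG.
Arntl RORE, chr7:113207530-113207559, plus strand: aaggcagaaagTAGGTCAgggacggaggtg
Per1 E-box, chr11:69098756-69098815, plus strand: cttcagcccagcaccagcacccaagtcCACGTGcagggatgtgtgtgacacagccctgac
Per1 D-box, chr11:69098889-69098948, plus strand: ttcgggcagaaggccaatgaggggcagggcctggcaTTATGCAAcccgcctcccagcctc
Per3 D-box, chr4:151044837-151044896, minus strand: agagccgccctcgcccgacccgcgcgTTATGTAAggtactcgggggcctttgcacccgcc
Cry1 E-prime box and E-box, chr10:85185082-85185141, minus strand: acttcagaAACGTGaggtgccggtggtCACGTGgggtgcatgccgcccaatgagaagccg
Cry2 E-prime box, chr2:92434203-92434262, minus strand: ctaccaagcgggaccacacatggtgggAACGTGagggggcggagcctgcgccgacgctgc
Nr1d1 E-prime box, chr11:98775378-98775437, minus strand: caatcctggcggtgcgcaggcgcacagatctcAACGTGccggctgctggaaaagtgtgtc

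E-boxes were found in the windows of 2 members, Per1 and Cry1, and in 8.09% of the 27025 genes with a window. E-prime boxes were found in 3 members, Cry1, Cry2 and Nr1d1, and in 5.44% of genes. The RORE core was found in 1 member, Arntl, where it begins 30 bases after the start, and in 2.97% of genes. D-boxes were found in 2 members, Per1 and Per3, with 2 copies in Per3 that begin 205 and 158 bases before the start, and in 3.99% of genes. The cyclic AMP response element was found in 0 of the 9 members with a window and in 2.03% of genes. The windows of Clock, Npas2 and Dbp held none of the 5 motifs. These matches describe the letters near the annotated starts, and sites farther away or within the genes were not searched.

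Per length of exon, Per1 was the most abundant member in 4 of the 6 libraries and Nr1d1 in the other 2, Ctrl 3 and cKO 2, while Npas2 was the least abundant in each. In the Ctrl-labelled libraries the levels in RPKM (CPM divided by exon length in kilobases, mean ± SD, n = 3) were 27.4 ± 23.8 for Nr1d1, 19.7 ± 5.65 for Per1, 14.6 ± 5.07 for Dbp and 14.1 ± 0.671 for Cry2. The mean of Nr1d1 rested on Ctrl 3, at 54.8 RPKM beside 12.2 and 15.2 in Ctrl 1 and Ctrl 2. These 4 genes had overlapping ranges over the mice. Cry1 followed at 7.51 ± 1.06 RPKM, below every library of Cry2, and then Per2 at 5.80 ± 2.12, Per3 at 3.68 ± 0.387 and Arntl at 3.65 ± 0.817, each overlapping the one before it. Clock at 2.23 ± 0.323 RPKM and Npas2 at 0.391 ± 0.234 lay below, with no overlap between Arntl and Clock or between Clock and Npas2. In the cKO-labelled libraries the order of the means was the same except that Arntl (4.07 ± 2.58 RPKM) stood above Per3 (3.67 ± 1.38), whose ranges overlapped. There Cry2 at 9.25 ± 1.74 RPKM overlapped Cry1 at 8.48 ± 1.31. Arntl, at 1.70 to 6.82 RPKM, also overlapped Clock, at 1.80 to 3.43 RPKM, and was below it in cKO 3.

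Between the labelled groups, Cry2 was the member that differed. It was higher in the Ctrl-labelled libraries, while 0 of the 10 members were called higher in the cKO-labelled ones, by edgeR or by DESeq2, and none of the other 9 had an unadjusted p under 0.05. Across all genes tested, 12.6% were called higher in the cKO-labelled libraries and 11.8% higher in the Ctrl-labelled ones at an adjusted p under 0.05, or 24.4% in either direction, so the 1 called member of 10 is no more than the background share. At an unadjusted p under 0.05 the shares were 19.2% and 19.6%, or 38.8% in either direction. Of the calls by adjusted p, those that also changed more than 2-fold made up 6.05% of all genes and 0 members. The median log2 fold change of the 10 members (labelled cKO minus labelled Ctrl) was 0.10, beside -0.02 for all genes tested. In whole muscle, fewer cells of a type and less RNA per cell cannot be told apart.

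**Figure D1:**
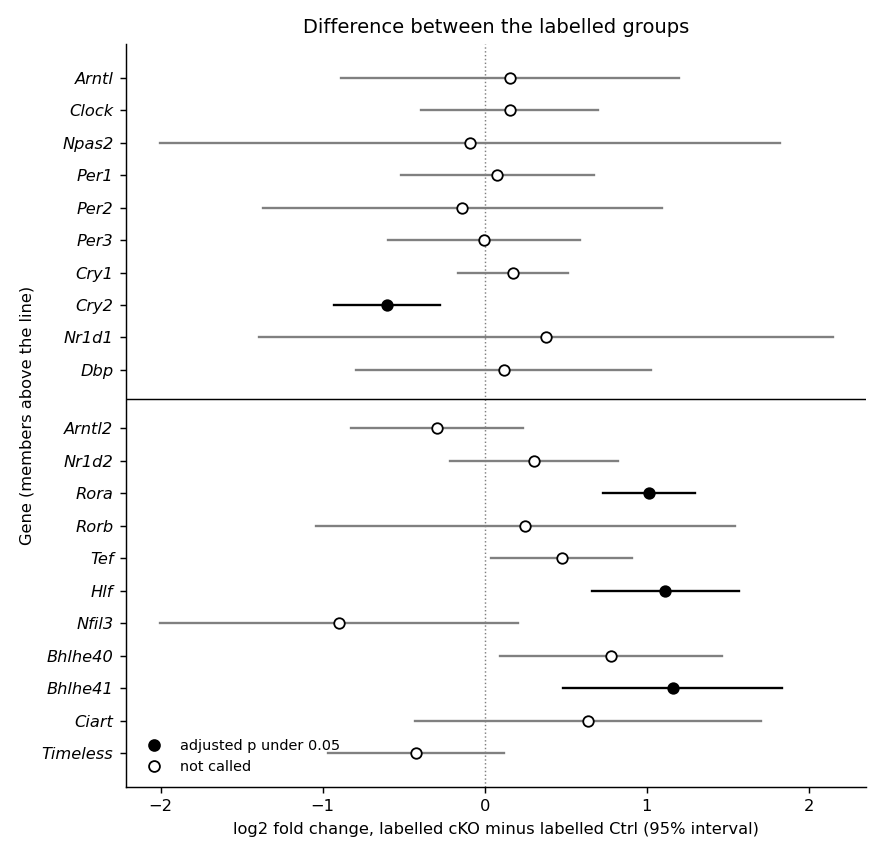
Log2 fold change (labelled cKO minus labelled Ctrl, x axis) of the 10 members above the line and of 11 other clock-related genes below it, with 95% intervals from edgeR's fit of 3 against 3 libraries. Filled points have an adjusted p under 0.05, and Cry2 at -0.60 is the member among them, while Rora, Hlf and Bhlhe41 are the others.

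In the positive limb, none of the 3 members was called. Arntl, whose protein BMAL1 is required for the rhythm, was at 27.5, 21.3 and 33.6 CPM in Ctrl-labelled mice 1, 2 and 3 and at 27.7, 51.3 and 12.8 CPM in cKO-labelled mice 1, 2 and 3. Both the highest and the lowest value lay in the cKO-labelled group, which enclosed the other group. Arntl had a log2 fold change of 0.16 (SE, the standard error, 0.44, adjusted p = 0.823), whose 95% interval reached from a fold of 0.541 to one of 2.30.

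Clock, the partner of BMAL1, was at 29.98, 26.5 and 35.3 CPM in the Ctrl-labelled libraries and at 30.4, 47.1 and 24.7 CPM in the cKO-labelled ones. Its order over the mice was that of Arntl within each group, and the groups overlapped (log2 fold change 0.15, SE 0.23, adjusted p = 0.665). Npas2, which can take the place of CLOCK, had 56, 43 and 115 counts against 24, 158 and 21, or 1.43, 1.04 and 3.15 CPM against 0.677, 4.10 and 0.477 CPM. Ctrl 3 and cKO 2 stood above the other 4 libraries, with an 8.60-fold range within the cKO-labelled group and a 3.03-fold range within the Ctrl-labelled group. Its log2 fold change of -0.09 (SE 0.81, adjusted p = 0.948) became -1.71 without cKO 2 and 0.50 without Ctrl 3, with adjusted p-values of 0.0645 and 0.722. With both left out it was -1.10 (adjusted p = 0.0608), an alternative chosen after the values were seen.

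Among the period genes, whose proteins join the repressor complex, none was called. Per1 was at 145, 106 and 81.8 CPM in the Ctrl-labelled libraries and at 120, 84.4 and 146 CPM in the cKO-labelled ones. Ctrl 3 and cKO 2 were the lowest of their groups, and the groups covered nearly the same range (log2 fold change 0.08, SE 0.25, adjusted p = 0.845).

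Per2 showed the same pair of low libraries more strongly, at 44.0, 37.9 and 20.1 CPM against 37.4, 9.89 and 45.3 CPM. The other 4 libraries lay between 37.4 and 45.3 CPM, whichever label they carried, and the log2 fold change was -0.14 (SE 0.52, adjusted p = 0.870). Per3, the gene with 2 D-boxes in its window, was at 33.1, 39.7 and 33.4 CPM against 33.6, 22.8 and 49.3 CPM. The group labelled cKO enclosed the other one on both sides, and the mean levels were nearly equal (log2 fold change -0.01, SE 0.25, 95% interval -0.60 to 0.59, adjusted p = 0.988).

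Of the cryptochromes, which hold BMAL1 and CLOCK inactive, Cry2 was called and Cry1 was not, and the difference between them was not tested. Cry1 was at 26.9, 27.3 and 21.0 CPM in the Ctrl-labelled libraries and at 33.2, 26.9 and 24.8 CPM in the cKO-labelled ones, and the groups overlapped (log2 fold change 0.17, SE 0.15, adjusted p = 0.412). Cry2 was at 88.5, 93.3 and 84.9 CPM against 66.2, 45.9 and 63.4 CPM, or 88.9 ± 4.24 against 58.5 ± 11.02 CPM. Each Ctrl-labelled library lay above each cKO-labelled library. The log2 fold change was -0.60 (SE 0.14, 95% interval -0.93 to -0.28, adjusted p = 0.0220 by edgeR), a fold of 0.658, and an exact two-sided permutation test gave p = 0.1, the smallest that 3 against 3 allows. Groups that do not overlap were found for this 1 member and for 43.9% of all genes tested.

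Cry2 was no longer called when either of 2 Ctrl-labelled mice was left out. Without Ctrl 1 the adjusted p was 0.0688 and without Ctrl 2 it was 0.0723, with log2 fold changes of -0.61 and -0.57, while it stayed under 0.05 in the other 4. Within each library, the ratio of Cry2 to Cry1 counts, which needs no scaling and was chosen after the values were seen, was 3.29, 3.41 and 4.04 in the Ctrl-labelled libraries and 1.99, 1.70 and 2.56 in the cKO-labelled ones. It was the only one of 8 count ratios computed whose groups did not overlap, and since Cry2 itself separated the groups, it restates those values. An RNA on the opposite strand, D930015M05Rik, shares 295 bases (4.67%) of the Cry2 exons, and whether counting used strand is not given in the sources used here.

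Nr1d1 and Dbp, both direct targets of BMAL1 and CLOCK, were not called. Nr1d1, which encodes the repressor REV-ERBα, was at 37.4, 46.7 and 168 CPM in the Ctrl-labelled libraries and at 43.2, 222 and 63.0 CPM in the cKO-labelled ones. A single mouse in each group, Ctrl 3 and cKO 2, stood far above the rest, with 4.50-fold and 5.13-fold ranges within the groups. The log2 fold change of 0.38 (SE 0.75, adjusted p = 0.748) became 1.38 without Ctrl 3 and -0.67 without cKO 2. With both left out it was close to the value from all 6 libraries, at 0.34 (adjusted p = 0.253), an alternative chosen after the values were seen. Nr1d1 shares 263 bases (8.55%) of its exons with Thra on the opposite strand, whose levels were 51.7 to 70.9 CPM in the Ctrl-labelled libraries and 69.7 to 87.4 CPM in the cKO-labelled ones.

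Dbp, a PAR bZIP factor that activates D-box genes, was at 27.6, 45.6 and 57.8 CPM against 41.8, 26.9 and 73.1 CPM. It was highest in mouse 3 of each group, so its order over the mice was not that of Nr1d1. The groups overlapped (log2 fold change 0.12, SE 0.39, adjusted p = 0.852). Sphk2 on the opposite strand shares 539 bases (18.0%) of the Dbp exons and had 19.1 to 29.8 CPM.

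**Figure D2:**
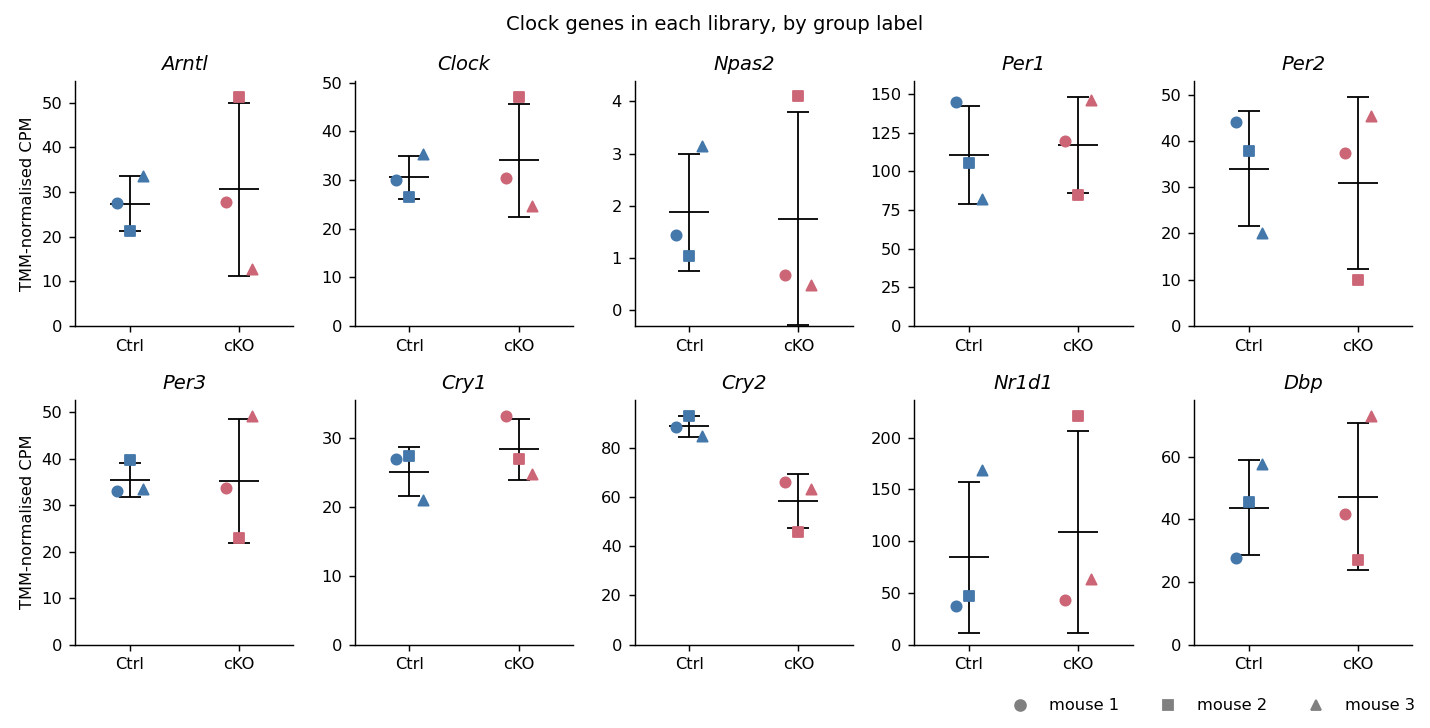
TMM-normalised CPM (y axis, linear) of each member in the 3 libraries labelled Ctrl (blue) and the 3 labelled cKO (red), with the mouse number given by the marker, the mean as a bar and the SD as whiskers. The groups are apart for Cry2 (84.9 to 93.3 against 45.9 to 66.2 CPM) and overlap in the other 9 panels, where Nr1d1 reaches 168 CPM in Ctrl 3 and 222 CPM in cKO 2. For Npas2 the lower whisker of the cKO-labelled group passes below 0 because the SD exceeds the mean.

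Mice with the same label differed widely in most of the members. The standard deviation of log2 CPM within the labelled groups was 1.27 for Npas2, 1.20 for Nr1d1, 0.94 for Per2, 0.75 for Arntl and 0.64 for Dbp, beside a median of 0.17 over all 14180 genes. These 5 genes lay at the 99.5th, 99.3rd, 98.5th, 96.7th and 95.02nd percentile of all genes tested. Per1, Per3 and Clock (0.41, 0.41 and 0.37) lay at percentiles of 85.3, 85.1 and 81.9. Cry1 and Cry2 (both 0.21) were the least variable members, at percentiles of 61.6 and 60.7. Wide spread was not particular to these genes. The median over the 10 members was 0.52, as it was over 10 clock-controlled outputs, and it was 0.67 over the glucocorticoid response, 0.69 over immediate early genes, 0.88 over adipocyte and over tendon markers and 1.14 over slow-fiber genes, lists described below. Npas2 had few counts, and counting error is part of its spread, while Nr1d1, Per2, Arntl and Dbp had 381 counts or more in each library.

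**Figure D3:**
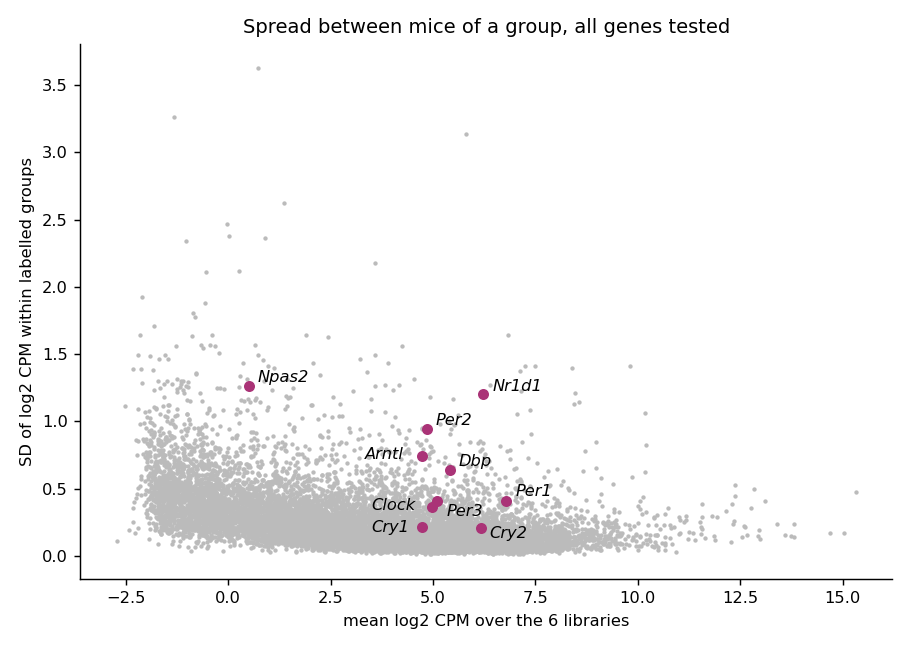
Standard deviation of log2 CPM within the labelled groups (y axis) against mean log2 CPM over the 6 libraries (x axis) for each of the 14180 genes tested (grey), with the 10 members marked. Nr1d1 (1.20), Per2 (0.94), Arntl (0.75) and Dbp (0.64) lie above most genes of like abundance, and Cry1 and Cry2 (both 0.21) lie among them.

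Mouse by mouse, most members had the same pair of libraries at their extremes. Arntl, Clock, Npas2 and Nr1d1 were each highest in Ctrl 3 and in cKO 2, and Per1, Per2 and Cry2 were each lowest in both. This holds for 7 of the 10 members and for 33.4% of all genes tested, of which 18.6% were highest and 14.9% lowest in both libraries. The pair was picked after the values were seen, and of the 9 ways to pair a mouse of each label it is the one with the most genes at the extremes, both for the members and for all genes. The other 8 pairings held 0 to 4 members and 16.0% to 25.7% of all genes. Over the 10 members, the deviations of Ctrl 3 and cKO 2 from their group means had a Pearson correlation of 0.82, and over all genes the value was 0.19. The members correlated as much or more in Ctrl 2 with cKO 3 (0.87) and Ctrl 2 with cKO 1 (0.83), which over all genes had values of 0.06 and 0.19, so Ctrl 3 and cKO 2 were not the closest pair by this measure. The members share their libraries, and the deviations within a group sum to 0, so these values are descriptions.

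The remaining 3 members departed from the pattern in 1 library. Per3 was lowest in cKO 2 but in Ctrl 3 it was close to Ctrl 1. Cry1 was lowest in Ctrl 3 and in the middle in cKO 2. Dbp was lowest in cKO 2 but highest in Ctrl 3.

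**Figure D4:**
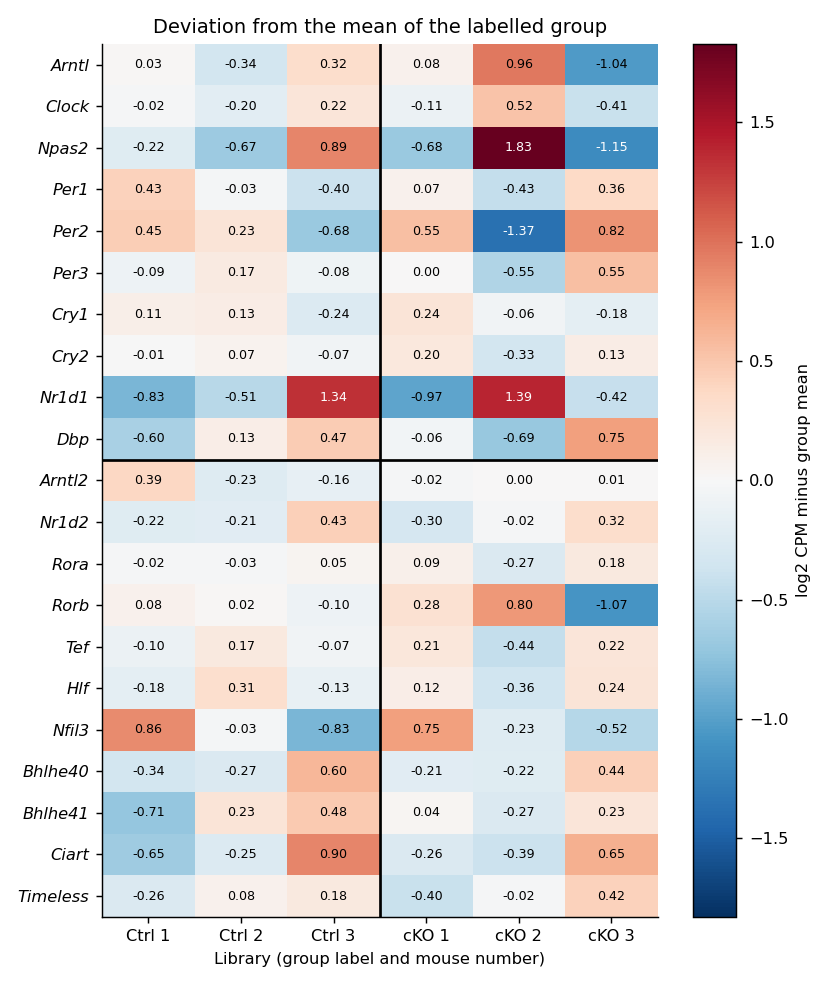
Log2 CPM minus the mean of the labelled group (color and printed value) for the 10 members above the line and 11 other clock-related genes below it (rows) in each library (columns). Ctrl 3 and cKO 2 are both high for Arntl (0.32 and 0.96), Npas2 (0.89 and 1.83) and Nr1d1 (1.34 and 1.39) and both low for Per2 (-0.68 and -1.37).

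Ratios of 2 members within a library need no scaling. Both pairs given here were chosen after the values were seen. The ratio of Nr1d1 to Per2 counts was 0.850, 1.23 and 8.39 in the Ctrl-labelled libraries and 1.15, 22.4 and 1.39 in the cKO-labelled ones. Since Nr1d1 was highest and Per2 lowest in Ctrl 3 and cKO 2, the high ratios there restate that pattern. The ratio of Arntl to Dbp, a positive factor against an output, was 0.994, 0.466 and 0.581 against 0.663, 1.91 and 0.175. The highest and the lowest ratio, 10.9-fold apart, were both in the cKO-labelled group, so that the ratio did not separate the groups.

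**Figure D5:**
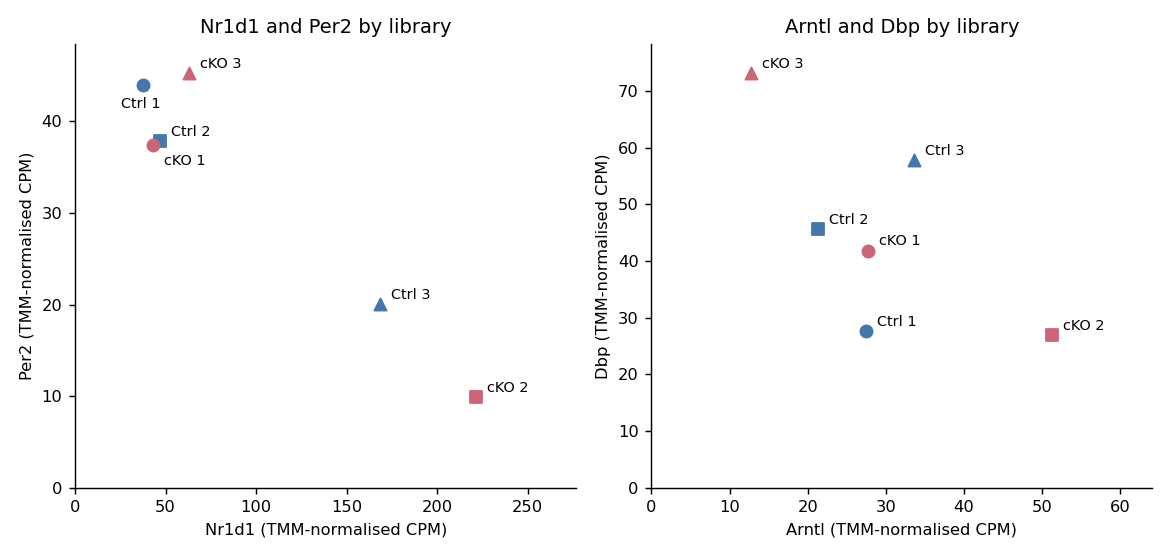
Per2 against Nr1d1 (left) and Dbp against Arntl (right), in TMM-normalised CPM, with 1 point for each library, colored by label and shaped by mouse number. On the left, Ctrl 3 and cKO 2 lie at 168 and 222 CPM of Nr1d1 and 20.1 and 9.89 CPM of Per2, apart from the other 4 libraries, and on the right cKO 2 and cKO 3 lie at opposite ends.

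The genes most like Arntl over the 6 libraries were sought among 12352 genes with a mean of at least 1 CPM. By Pearson's r of log2 CPM they were Olfr558 (0.987), Lama3 (0.978), Ccm2 (0.976), Adamts15 (0.976) and Daam2 (0.976). Clock ranked 17 (r = 0.941) and Npas2 ranked 84 (0.876). At the other end, Per3 ranked 12351, or next to last (-0.977), and Per2 ranked 12250 (-0.830). Per1 ranked 12033 (-0.731), Dbp 11975 (-0.713) and Cry2 10019 (-0.351). Nr1d1, whose product represses Arntl, ranked 695 (0.620), and Cry1 ranked 5814 (0.0235), so the members did not split cleanly by limb. With library totals in place of TMM, Lama3 alone of the 5 genes stayed among the first 5, Clock ranked 13 and Per3 12201. With deviations from the group means, which remove the difference between labels, 0 of the 5 genes stayed there, Clock ranked 79 and Npas2 305, and Per3 ranked 12343 (-0.986). The ranks of single genes over 6 libraries thus depend on the measure.

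The genes most like Dbp were Caml (0.987), Plec (0.974), 2700062C07Rik (0.971), Pdlim4 (0.963) and Mcph1 (0.951). Of these, Mcph1 stayed among the first 5 with library totals, and 0 did with deviations from the group means. Per3 ranked 96 (0.797) and Ciart, a repressor of the clock, ranked 135 (0.772), while Arntl ranked 12050 (-0.713). Of the other members, Per2 ranked 1916 (0.383), Cry2 3770 (0.221), Per1 4996 (0.124) and Nr1d1 7036 (-0.0447). Cry1 ranked 10637 (-0.413), Npas2 11200 (-0.499) and Clock 11669 (-0.591). With deviations from the group means, Per3 ranked 626, Ciart 348 and Arntl 11289.

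A list of 11 other clock-related genes held regulators of transcription and Timeless. Of these 11, edgeR called 3 (Rora, Hlf and Bhlhe41) and DESeq2 called 5 (these and Tef and Bhlhe40), each higher in the cKO-labelled libraries. By either tool 0 were called higher in the Ctrl-labelled ones. Over all genes, edgeR called 24.4% in either direction and 12.6% in that one, so its count of 3 is close to the first share and above the second. DESeq2 called 2094 genes higher in the cKO-labelled libraries and 1830 higher in the Ctrl-labelled ones, of 18918 genes fitted. The median log2 fold change of the 11 genes was 0.47, beside -0.02 for all genes. At an unadjusted p under 0.05 there were 5, again all higher in the cKO-labelled libraries, beside 19.2% of all genes in that direction and 38.8% in either.

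Rora, which encodes an activator of Arntl at the RORE, was called. It was at 68.6, 68.5 and 72.1 CPM in the Ctrl-labelled libraries and at 149, 116 and 158 CPM in the cKO-labelled ones. The groups were far apart, with a log2 fold change of 1.01 (SE 0.12, adjusted p = 0.00333). Its relative Rorb, at 0.0909 to 0.467 CPM over all libraries, was not called. Nr1d2, which encodes the second REV-ERB repressor, was at 79.8, 79.9 and 125 CPM against 93.3, 114 and 144 CPM and was not called (0.30, adjusted p = 0.348, and 0.11 without cKO 3 or 0.55 without Ctrl 3).

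Of the factors that bind D-boxes, Hlf, a relative of Dbp, was called, at 11.6, 16.3 and 12.0 CPM against 30.9, 22.1 and 33.5 CPM. The groups did not overlap (log2 fold change 1.12, SE 0.19, adjusted p = 0.00885). Tef, the remaining PAR bZIP factor, was at 258, 313 and 264 CPM against 439, 280 and 442 CPM, with cKO 2 inside the range of the other group. It was not called by edgeR (0.47, adjusted p = 0.105), but was by DESeq2 (adjusted p = 0.0462) and without cKO 2 (0.65, adjusted p = 0.0119). Nfil3, a repressor at the same sites, was at 187, 101 and 57.9 CPM against 96.4, 48.7 and 40.0 CPM and was not called (-0.90, adjusted p = 0.202). Its log2 fold change was -0.36 without Ctrl 1 and -1.39 without cKO 1.

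Of the repressors of BMAL1 and CLOCK, Bhlhe41 was called, at 27.1, 52.3 and 61.9 CPM against 107, 86.7 and 122 CPM (1.16, SE 0.29, adjusted p = 0.0274). This call was lost without Ctrl 2, cKO 1 or cKO 3 (adjusted p of 0.0672, 0.0767 and 0.0851), and 1280 bases (19.0%) of its exons are shared with Gm43909 on the opposite strand. Bhlhe40 was at 49.3, 51.8 and 94.8 CPM against 94.3, 93.8 and 148 CPM. It was not called by edgeR (0.78, adjusted p = 0.0940) but was by DESeq2 (adjusted p = 0.0205) and without Ctrl 3 (1.15, adjusted p = 0.0169). Ciart, at 1.56, 2.08 and 4.65 CPM against 3.36, 3.06 and 6.39 CPM, was not called (0.64, adjusted p = 0.338). Its log2 fold change ran from 0.21 without cKO 3 to 1.24 without Ctrl 3, and with Ctrl 3 and cKO 2 both left out it was called (1.43, adjusted p = 0.0344). Arntl2, a relative of Arntl (-0.29, adjusted p = 0.375, and -0.07 without Ctrl 1), and Timeless (-0.42, adjusted p = 0.219) were not called.

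Of these 11 genes, 0 were highest in both Ctrl 3 and cKO 2 and 0 were lowest in both, beside 18.6% and 14.9% of all genes. Other lists below held many such genes. Within the cKO-labelled group, 6 of the 11 were lowest in cKO 2, Rora, Hlf, Tef and Bhlhe41 among them, and within the Ctrl-labelled group 6 were highest in Ctrl 3.

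Of the enzymes that modify clock proteins, 2 of 11 tested were called higher in the cKO-labelled libraries and 0 higher in the Ctrl-labelled ones (edgeR), with 3 at an unadjusted p under 0.05. Over all genes these shares were 24.4% and 38.8% in either direction. Of the 11, 3 were lowest in both Ctrl 3 and cKO 2, beside 14.9% of all genes. Prkaa2, a catalytic subunit of AMP-activated kinase, which marks CRY proteins for breakdown, was at 192 ± 16.7 against 317 ± 16.1 CPM (log2 fold change 0.73, adjusted p = 0.00394). Csnk1e, a kinase of PER proteins, was at 54.2 ± 3.30 against 70.5 ± 9.22 CPM (0.38, adjusted p = 0.0419). Csnk2a1, a catalytic subunit of casein kinase 2 (0.22, adjusted p = 0.0821), was not called. It was 1 of 4 of the 11 enzymes whose groups did not overlap, beside 43.9% of all genes. The median of the 11 was 0.04, and Fbxl21 was too low to be tested.

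Of 10 tested genes that the clock is known to drive in muscle or other tissues, 1 was called in each direction, beside 12.6% and 11.8% of all genes. Ucp3, a mitochondrial carrier, was higher in the cKO-labelled libraries (97.0 ± 18.2 against 229 ± 99.2 CPM, log2 fold change 1.24, adjusted p = 0.0342). Cdkn1a, the cell cycle inhibitor p21, was higher in the Ctrl-labelled ones (91.6 ± 28.4 against 35.1 ± 14.8 CPM, -1.39, adjusted p = 0.0282). Myod1 (0.87, adjusted p = 0.0836) and Pdk4 (-0.74, adjusted p = 0.217) were not called. Of the 10 genes, 7 were lowest in both Ctrl 3 and cKO 2 (Wee1, Ccrn4l, Tcap, Ucp3, Alas1, Por and Myod1), beside 14.9% of all genes. The pattern was thus not limited to the core members.

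Genes of the glucocorticoid response, a daily hormonal signal to the muscle clock, were also counted. Of 12 tested, 2 were called higher in the cKO-labelled libraries and 0 in the Ctrl-labelled ones (edgeR), with 4 at an unadjusted p under 0.05, beside 24.4% and 38.8% of all genes in either direction. The called genes were Sgk1 (156 ± 1.31 against 255 ± 42.1 CPM, log2 fold change 0.71, adjusted p = 0.00926) and the receptor Nr3c1 (84.6 ± 14.5 against 119 ± 15.3 CPM, 0.50, adjusted p = 0.0458), while Mt2 (-1.07, adjusted p = 0.122) and Klf9 (0.35, adjusted p = 0.124) were not called. Of the 12, 11 were lowest in both Ctrl 3 and cKO 2, like Per2, all but Nr3c1, beside 14.9% of all genes. This count was made after the values were seen. Fkbp5 and Ddit4 are given as examples chosen by their values. Fkbp5 was at 113, 124 and 27.4 CPM against 256, 41.5 and 82.3 CPM, and Ddit4 was at 289, 119 and 29.2 CPM against 343, 38.5 and 172 CPM. Both overlapped between the groups and were not called (adjusted p of 0.639 and 0.811), and the part of this response in the levels of the members was not tested.

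Of 9 immediate early genes, which include inducers of Per1, 1 was called higher in the Ctrl-labelled libraries and 0 in the cKO-labelled ones (edgeR), beside 24.4% of all genes in either direction, with 1 at an unadjusted p under 0.05. This was Crem, a regulator at cyclic AMP response elements (22.1 ± 3.59 against 11.3 ± 1.13 CPM, log2 fold change -0.96, adjusted p = 0.00550). Fos (-1.53, adjusted p = 0.175), Egr1 (-0.50, adjusted p = 0.346) and Nr4a1 (0.44, adjusted p = 0.352) were not called.

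Markers of fiber type and of some other cells moved with the labels, as Cry2, Rora, Hlf and Bhlhe41 did. Over all genes tested, 12.6% were called higher in the cKO-labelled libraries and 11.8% higher in the Ctrl-labelled ones. Of 11 slow-fiber genes, 6 were called higher in the Ctrl-labelled libraries, such as Csrp3 (-2.62, adjusted p = 0.000627), with a summed level of 9460.4 to 15999 CPM there and 609.65 to 4198 CPM in the cKO-labelled ones. All 8 fast type IIb genes were called higher in the cKO-labelled libraries, such as Atp2a1 (1.02, adjusted p = 0.00918), with sums of 149620 to 192750 CPM against 56429 to 95759 CPM. Of 5 tested immune markers, 4 were called higher in the Ctrl-labelled libraries (Lyz2 at -1.07, adjusted p = 0.00354), with sums of 120.13 to 137 CPM against 53.9 to 78.8 CPM. Of 5 genes of fibro-adipogenic progenitors, 3 were called in the same direction (902 to 1057 against 610.26 to 899 CPM), as were 2 of 3 smooth muscle genes (234 to 250.37 against 152 to 190.35 CPM). Endothelial (326 to 340.49 against 299.74 to 337 CPM), Schwann cell (102 to 158 against 54.5 to 103 CPM), adipocyte (23.1 to 75.2 against 30.6 to 72.3 CPM) and tendon genes (149 to 176 against 86.5 to 480.15 CPM) had 0 called in either direction by edgeR, with 2 Schwann cell genes at an unadjusted p under 0.05. Of 4 blood genes, the hemoglobin genes Hbb-bs, Hbb-b1 and Hba-a1 were listed with 0 counts in each library. The other, Alas2, had 145 to 363 counts and was not called (-0.16, adjusted p = 0.720), so the 0 counts do not show that blood was absent. The part of these cells in the levels of the clock genes was not tested.

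Some of these markers had the same libraries at their extremes as the members. Over all genes, 18.6% were highest and 14.9% lowest in both Ctrl 3 and cKO 2. Of the 5 immune genes tested, 4 were highest in both Ctrl 3 and cKO 2 (Ptprc, Cd68, Adgre1 and Lyz2), as were 3 of 5 adipocyte genes (Adipoq, Plin1 and Lep) and 2 of 3 smooth muscle genes (Acta2 and Tagln). Other lists were split. Of 5 endothelial genes, Cdh5 and Kdr were highest in both and Pecam1 lowest, and of 5 genes of fibro-adipogenic progenitors, Col3a1 was highest in both and Pdgfra lowest. Of 7 skeletal muscle genes, Acta1 and Myh1 were lowest in both, and of 5 Schwann cell genes 0 were at either extreme. Adipoq was at 7.30, 3.52 and 13.4 CPM in the Ctrl-labelled libraries and at 9.20, 15.2 and 4.16 CPM in the cKO-labelled ones. Of 4 tendon genes, each was highest in cKO 2 within its group, with Fmod at 77.4, 446 and 216 CPM there, and 1 of them, Scx, was also highest in Ctrl 3 (7.02, 5.98 and 8.40 CPM against 5.64, 9.95 and 5.95 CPM). Of 11 slow-fiber and 8 fast type IIb genes, 0 were highest in both or lowest in both. These counts were made after the values were seen, and the part of these cells in the pattern of the members was not tested.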

How the data were processed

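The counts deposited by the authors, 1 file per mouse, are whole numbers of reads per gene without normalization. Per the labels' processing notes, the tools were FastQC 0.11.8, Trimmomatic 0.39, HISAT2 2.1.0 and featureCounts 1.6.2, with mm10 as the build. The annotation and the strand setting are not given in the sources used here. Groups were taken from the sample labels, and no column came from another series. Replicates differed by a chi-square of 29.5 to 101 for each degree of freedom, far over sampling noise, and each library was kept.

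From these counts, the labelled groups were compared with edgeR 4.0.16 in R 4.3.3, with TMM scaling, filterByExpr, estimateDisp, glmQLFit and glmQLFTest, and p-values were adjusted by Benjamini-Hochberg over all genes tested. Genes were called at an adjusted p under 0.05. The study's tool was DESeq, for which DESeq2 1.42.0 stood in as an alternative. The SE of a log2 fold change came from the F statistic, and log2 CPM had a prior count of 2. CPM of single genes was compared by exact two-sided permutation tests. RPKM used exon lengths from GENCODE M21 on GRCm38. The steps were tested on simulated data.

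The genes named are the 10 members, 11 other clock-related genes, up to 4 genes with the smallest p of each further list, and the 5 genes most like Arntl and Dbp. Genes named for the libraries at their extremes, Fkbp5, Ddit4, Adipoq, Scx and Wee1 among them, were chosen after their values were seen. For the enzyme and marker lists fewer are named by p, and some genes of the lists are not reported here. The members and lists were chosen with earlier results of these data known. The alternatives tried were scaling by DESeq2's size factors or by library totals, testing without a filter or with a minimum of 10 counts per library, DESeq2's Wald test, a robust fit, a block for mouse number and leaving out each library. Leaving out Ctrl 3 and cKO 2 together was added after seeing the data.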

Additional observations from a re-analysis of the deposited data

How the results depend on the processing

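Over 14 alternative fits of each of the 10 members, 140 in all, 109 kept the direction and the side of the threshold, 3 lost the Cry2 call and 28 reversed the sign of a member that was not called. Cry2 kept its direction in all 14. With library totals, all genes shifted by a median log2 fold change of -0.27, and Arntl (-0.0676), Clock (-0.0830), Per1 (-0.1920), Cry1 (-0.0860) and Dbp (-0.1488) became negative, while Cry2 lay 0.60 below that median, as with TMM (0.59 below). Per3 turned positive with DESeq2's size factors (0.0026), without a filter (0.0060) and in DESeq2's Wald test (0.0072). When 1 library, or Ctrl 3 and cKO 2, was left out, log2 fold changes ranged from -0.4560 to 0.5144 for Arntl, -0.1688 to 0.3261 for Clock, -1.7083 to 0.5042 for Npas2, -0.1341 to 0.3208 for Per1, -0.5446 to 0.2649 for Per2, -0.3443 to 0.2125 for Per3, -0.6713 to 1.3779 for Nr1d1, -0.3591 to 0.6531 for Dbp, -0.3626 to 0.6867 for Rorb, 0.0313 to 0.2455 for Cry1, 0.1146 to 0.5697 for Nr1d2, -0.4089 to -0.0656 for Arntl2, -0.6785 to -0.2572 for Timeless, -1.3927 to -0.3631 for Nfil3, 0.2114 to 1.4281 for Ciart and 0.5151 to 1.2609 for Bhlhe40. Rorb gave no value with at least 10 counts in every library.

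The count of genes called higher in the cKO-labelled libraries (1786) became 673 with library totals and 766 to 2164 with libraries left out, and that of genes higher in the Ctrl-labelled ones (1668) became 4074 and 788 to 1961. With a fold change over 2, the 302 and 556 genes became 157 and 1023 with library totals, and the 302 became 172 to 455 with libraries left out. The 1 member called became 0 to 1 with libraries left out.

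Mice with the same number in both groups deviated from their group means with correlations of 0.08, -0.21 and -0.00201 over all genes, and not every mouse correlated best with its own number, so the numbers were not taken to pair the mice. With mouse number as a block there were 927 and 972 genes called and 0 members, with Cry2 at -0.62 (adjusted p = 0.0532) and Arntl at -0.0244, and Bhlhe40 (adjusted p = 0.0169) and Nfil3 (adjusted p = 0.0231) passed the threshold. The cause of these changes was not tested.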
